A study of Mus musculus with 32 samples.

Results

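The unfolded protein response and the integrated stress response were described in mouse kidney through 10 genes: Hspa5, Hsp90b1, Pdia4, Sdf2l1, Creld2, Manf, Ddit3, Trib3, Asns and Atf4. They were chosen by name, as well known outputs and regulators of both responses, and with earlier results of these data known. Their counts beside those of all genes are therefore descriptions and not tests of the set. These 10 genes are part of the 53700 in the count table, and all 10 were among the 13961 genes that passed the filter on low counts.

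RNA from 32 kidneys of male C57BL/6 iKspCre-Pkd1del mice was sequenced, in which a tamoxifen-inducible Cre driven by the kidney-specific Ksp promoter removes exons of Pkd1 that are flanked by loxP sites. The 8 wildtype mice carried the same alleles, were given no tamoxifen and were 109 days old. The 12 PKD mice received tamoxifen at 150 mg/kg on postnatal days 18 and 19, and were collected at 95 days. The 12 PKD + Salsalate mice had the same tamoxifen and age, and ate chow with 2.5 g/kg salsalate, a salicylate prodrug that activates AMPK, for 2 weeks from day 81. Genotype therefore cannot be told apart from tamoxifen or from age in any comparison with wildtype. Per the paper, the PKD and PKD + Salsalate mice were selected from more animals for mild and similar disease. The measure was kidney weight over body weight, taken after sacrifice. Their comparison is thus between mice matched on that outcome, and PKD here means mild disease. Ksp Cre acts in tubule cells, whereas the RNA came from whole kidney, so fewer cells of a type and less RNA per cell cannot be told apart either.

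When unfolded proteins accumulate in the endoplasmic reticulum (ER), the sensors ATF6, IRE1 and PERK are released from the chaperone BiP and raise transcription of chaperones, partly through ER stress response elements in their promoters. PERK and 3 related kinases, which sense amino acid shortage, viral RNA or heme and mitochondrial stress, also phosphorylate the translation factor eIF2. This integrated stress response slows general translation and favours translation of ATF4, which in turn induces genes of amino acid supply and the factor CHOP. The kidney tubule, with its heavy secretory and transport load, uses both.

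Libraries held between 11193136 and 109807664 reads counted in genes. Of the 8 wildtype libraries, 5 have names that end in R, and no PKD or PKD + Salsalate library does; what the R marks was not given in the sources used here. The no-feature share is the percentage of reads that the counter found in no gene, without reads left uncounted for other reasons. It was 13.2 to 15.7% in the 5 libraries ending in R, 7.6 to 9.77% in the other 3 wildtype libraries, 7.65 to 16.4% in PKD and 7.87 to 11.9% in PKD + Salsalate. Between the 5 and the 3, levels did not overlap for 43.8% of all genes tested and for 5 of the 10 genes here (Pdia4, Sdf2l1, Creld2, Ddit3 and Atf4), so each comparison of the 10 genes with wildtype, and each list count for PKD over wildtype, is also given against each set alone. Pkd1 itself, counted over the whole gene and so including exons outside the deletion, read 68.7 ± 10.9 counts per 1000000 counted reads (CPM) in wildtype (SD, n = 8), 92.1 ± 15.1 in PKD and 92.7 ± 15.1 in PKD + Salsalate (n = 12 each). It therefore gives no check of the deletion. PKD replicate 10 held liver RNA: its 18 liver transcripts summed to 7141 CPM against at most 1911 in the other PKD kidneys, and none of the 10 genes changed its call without it.

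The promoters are shown first because 4 of the 6 chaperone genes held an ER stress response element or its variant there, while Pdia4 and Sdf2l1 held neither in this window. In the 250 bases upstream of each start site (GRCm39, canonical transcripts of GENCODE M39, both strands searched), the ERSE (ER stress response element), CCAAT and CCACG separated by any 9 bases, was found in 0.115% of 21770 protein-coding promoters and in 3 of the 10 genes. Its variant ERSE-II, ATTGG and CCACG separated by any 1 base, was found in 0.0551% of promoters and in 1 of the 10. The CARE motif bound by ATF4 and CHOP dimers with C/EBP factors, TGATGNAA, was found in 3.39% and in 1 of the 10. CCAAT alone, which also forms part of every ERSE and, read on the other strand, of ERSE-II, was found in 36.5% of promoters and in 8 of the 10, and the cyclic AMP response element TGACGTCA in 1.69% and in 0 of the 10. These are letter matches only. The 10 genes were chosen as known outputs and regulators of the responses, so the shares describe them and are not a test. Capitals mark the matched element in each stretch, written 5′ to 3′ on the strand of the gene.
Hspa5, ERSE, chr2:34662022-34662070, plus strand: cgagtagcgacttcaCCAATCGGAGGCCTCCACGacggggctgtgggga
Hsp90b1, 2 ERSE, the second reading on the opposite strand, chr10:86541382-86541535, minus strand: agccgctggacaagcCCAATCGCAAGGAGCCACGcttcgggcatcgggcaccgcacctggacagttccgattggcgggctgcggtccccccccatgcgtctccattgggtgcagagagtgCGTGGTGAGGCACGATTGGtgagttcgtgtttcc
Creld2, ERSE on the opposite strand, chr15:88703708-88703756, plus strand: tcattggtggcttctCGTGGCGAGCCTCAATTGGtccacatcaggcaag
Manf, ERSE-II on the opposite strand, chr9:106769223-106769263, minus strand: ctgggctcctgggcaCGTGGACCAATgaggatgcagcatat
Ddit3, CARE on the opposite strand, chr10:127126346-127126383, plus strand: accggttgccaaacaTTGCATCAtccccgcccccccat

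Levels between genes were compared as CPM per kilobase of the canonical transcript. In wildtype kidney Hsp90b1 (83.5), Atf4 (72.4) and Hspa5 (50.6) lay highest on that scale. Ddit3 (25.2), Creld2 (18.1), Manf (14.8), Pdia4 (10.7) and Sdf2l1 (5.2) followed, and Trib3 (1.27) and Asns (0.62) lay lowest. These means pool both wildtype library sets. Before scaling by length, Ddit3 had a mean of 30.3 CPM in the R libraries and 15.35 in the others, so its place in the order depends on the set. Trib3 and Asns rested on as few as 21 reads in a library, Sdf2l1 on as few as 31, and Hspa5 on at least 2805. The remaining values are CPM scaled by TMM (trimmed mean of M values) factors, which compare 1 gene between kidneys and not 1 gene with another.

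The first comparison asked what differed between PKD and wildtype kidneys. Manf, Creld2, Sdf2l1, Pdia4 and Hspa5, of the ER chaperone arm, and Asns, an ATF4 target, were higher in PKD, by 1.31-fold (Hspa5) to 2.13-fold (Asns). The chaperone gene Hsp90b1, the regulators Atf4 and Ddit3, and Trib3 did not pass the test. In all, 6 of the 10 genes were called higher and 0 lower (edgeR quasi-likelihood test, Benjamini-Hochberg adjusted p under 0.05 over all genes), where 24.1% of all tested genes were called higher and 25.0% lower. The median log2 fold change of the 10 was 0.43, against −0.01 over all genes. Every PKD kidney lay above every wildtype kidney for 3 of the 10, Creld2, Manf and Asns, and for 5.21% of all genes.

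**Figure D1:**
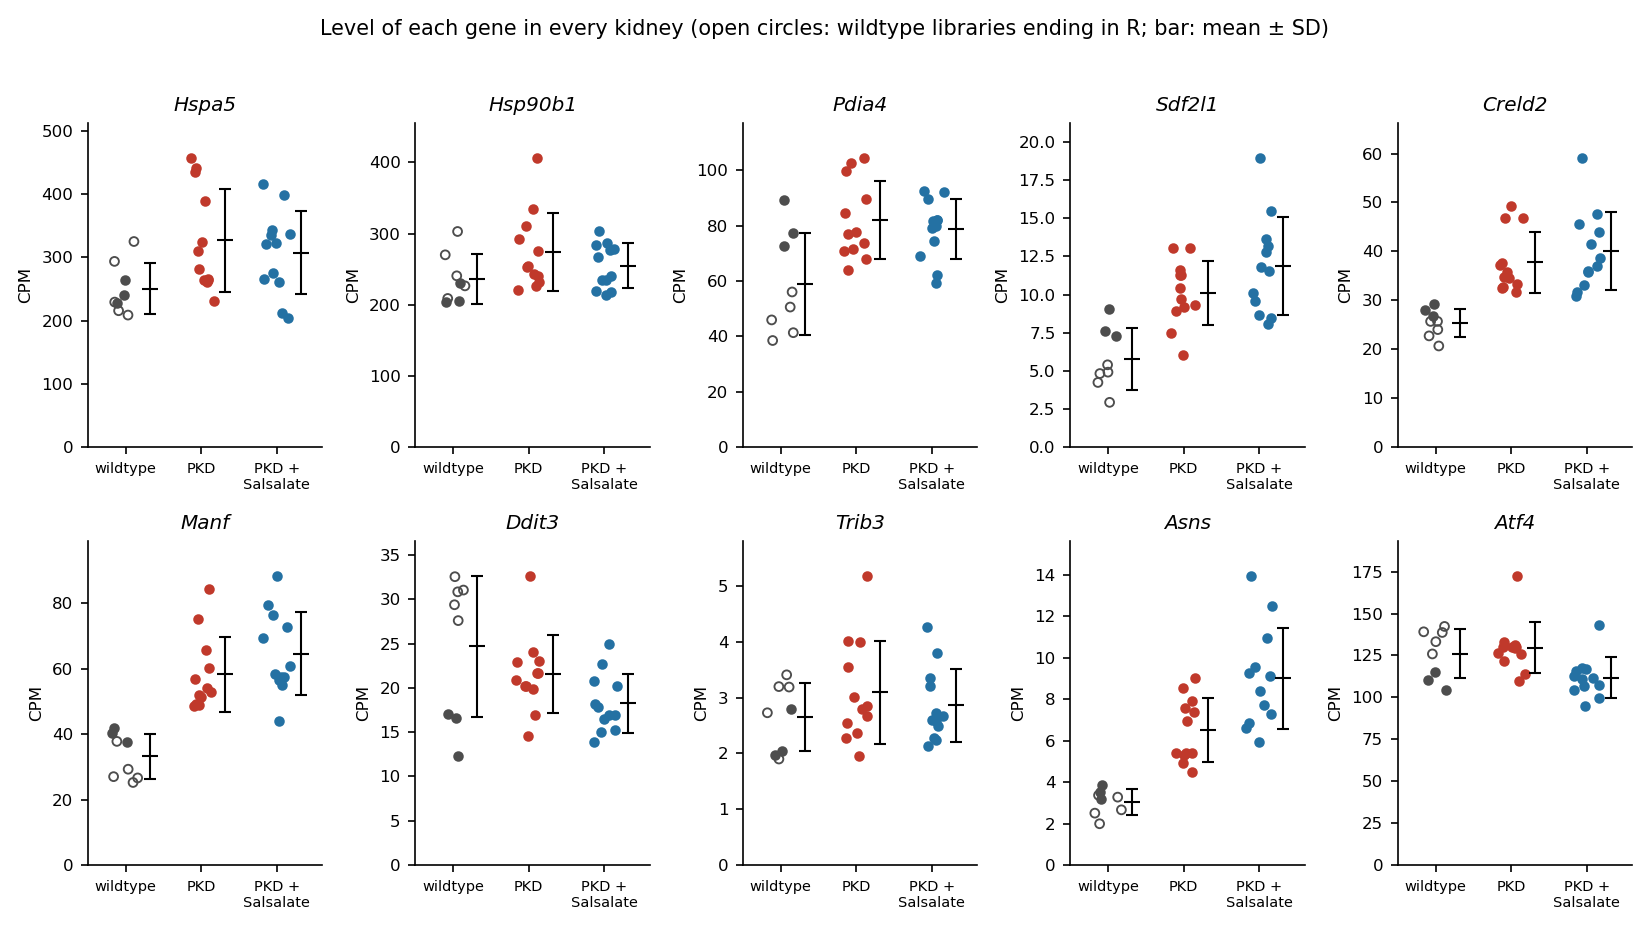
CPM of each of the 10 genes (y axis, from 0) in every kidney of the wildtype, PKD and PKD + Salsalate groups; each circle is 1 kidney, open circles are the 5 wildtype libraries ending in R, and bars give mean ± SD. PKD kidneys lie above all wildtype kidneys for Creld2, Manf and Asns, while open and filled wildtype circles separate for Pdia4, Sdf2l1, Creld2, Ddit3 and Atf4.

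Hspa5 (chr2:34661982-34668880, plus strand) encodes BiP, the main ER chaperone and the protein that holds the sensors inactive. Its level was 208.6 to 324.8 CPM in wildtype (median 235), 231.5 to 456.9 in PKD (median 295) and 203.9 to 415.1 in PKD + Salsalate (median 321). The groups overlapped, and 4 PKD kidneys, replicates 2, 9, 10 and 12, lay above all wildtype kidneys with 456.9, 434.0, 388.8 and 441.2 CPM. The log2 fold change of PKD over wildtype was 0.38 ± 0.14 (SE), edgeR adjusted p = 0.0202. The call was lost against either wildtype set alone, at 0.36 (adjusted p = 0.0594) and 0.41 (adjusted p = 0.0955), close to the 0.38 against all 8.

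Hsp90b1 (chr10:86526073-86541446, minus strand) encodes GRP94, the ER form of HSP90. It read 236.2 ± 34.8 CPM in wildtype (SD, n = 8), 274.3 ± 54.4 in PKD and 255.0 ± 31.5 in PKD + Salsalate (n = 12 each). PKD replicate 4 was highest of all kidneys at 406 CPM, and the groups overlapped widely. The log2 fold change of 0.22 ± 0.10 did not pass (edgeR adjusted p = 0.0715), although it did against the 3 other wildtype libraries (0.35, adjusted p = 0.0427).

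Pdia4 (chr6:47770077-47790462, minus strand) encodes a disulfide isomerase of the ER. The 5 wildtype libraries ending in R read 56.1, 38.5, 50.6, 46.0 and 41.4 CPM. The other 3 wildtype libraries read 72.5, 89.2 and 77.2 CPM, and PKD kidneys 64.0 to 104.5 (median 77.3). These 3 wildtype libraries therefore lay within the PKD range and the R libraries all below it. The fold change followed that split: 0.47 ± 0.13 on the log2 scale against all 8 (edgeR adjusted p = 0.0030), 0.82 ± 0.12 against the 5 (adjusted p = 7.98e-07) and 0.03 ± 0.13 against the 3 (adjusted p = 0.854). The interval against the 3 ran from −0.24 to 0.31.

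Sdf2l1 (chr16:16948002-16950252, minus strand) encodes a partner of the ER DnaJ proteins that serve BiP. Wildtype libraries ending in R held 2.94 to 5.4 CPM and the other 3 held 7.3 to 9.08. PKD kidneys ran from 6.02 to 13.0 CPM (median 10.1). Its log2 fold change was 0.77 ± 0.17 against all 8 (edgeR adjusted p = 0.00052) and 1.16 ± 0.19 against the R libraries, but 0.32 ± 0.21 against the other 3, where the call was lost (adjusted p = 0.233).

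Creld2 (chr15:88703795-88710890, plus strand) and Manf (chr9:106715511-106769727, minus strand) encode small ER-resident proteins that are secreted under ER stress. Creld2 read 20.7 to 29.3 CPM in the 8 wildtype kidneys and 31.7 to 49.2 in the 12 PKD kidneys. Manf read 25.2 to 41.9 CPM in wildtype and 48.7 to 84.3 in PKD. Neither gene had a PKD kidney within the wildtype range. Creld2 was higher by 0.57 ± 0.11 on the log2 scale (edgeR adjusted p = 4.53e-05), and by 0.67 and 0.42 against the R and the other wildtype libraries. Manf was higher by 0.81 ± 0.13 (edgeR adjusted p = 3.02e-06), and by 1.00 and 0.53 against the same sets, all of these calls passing.

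Asns (chr6:7671667-7728461, minus strand) encodes asparagine synthetase, which makes asparagine from aspartate and glutamine and is a classical ATF4 target. The 8 wildtype kidneys read 1.99, 3.36, 2.50, 3.27, 2.66, 3.18, 3.87 and 3.52 CPM. PKD kidneys ran from 4.48 to 9.04 CPM (median 6.17), all above the wildtype range. Of the 10 genes it had the largest log2 fold change, 1.09 ± 0.16 (edgeR adjusted p = 1.79e-06), and it passed against the R libraries (1.24) and the other 3 (0.90).

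Atf4 (chr15:80139372-80141745, plus strand) encodes the transcription factor at the centre of the integrated stress response, whose output is set mostly at translation. Its mRNA read 126.1 ± 14.6 CPM in wildtype (SD, n = 8) and 129.6 ± 15.3 in PKD (n = 12), with PKD replicate 4 apart at 172 CPM and the rest at 110 to 133. The log2 fold change was 0.04, with an interval from −0.11 to 0.19 and edgeR adjusted p = 0.682. It took the other sign against the 5 R libraries, at −0.07, and did not pass against either set.

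Ddit3 (chr10:127124268-127132163, plus strand) encodes CHOP, the factor that ties prolonged stress to cell death. The 5 wildtype libraries ending in R read 31.1, 27.6, 29.4, 32.6 and 30.9 CPM, and the other 3 read 17.1, 12.3 and 16.6 CPM. PKD kidneys ran from 14.6 to 32.7 CPM (median 21.3) and lay, apart from replicates 4, 2 and 10, between those sets. Against all 8 the log2 fold change was −0.19 ± 0.15 (edgeR adjusted p = 0.289). Against the R libraries Ddit3 was lower in PKD (−0.50 ± 0.12, adjusted p = 0.00089), and against the other 3 it was higher (0.47 ± 0.17, adjusted p = 0.0275), so the data give it no single direction. Trib3 (chr2:152179337-152191958, minus strand), a CHOP and ATF4 target that feeds back on both, read 1.9 to 3.41 CPM in wildtype and 1.95 to 5.18 in PKD. Its log2 fold change of 0.25 ± 0.17 did not pass (edgeR adjusted p = 0.221), and neither did those against each set.

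**Figure D2:**
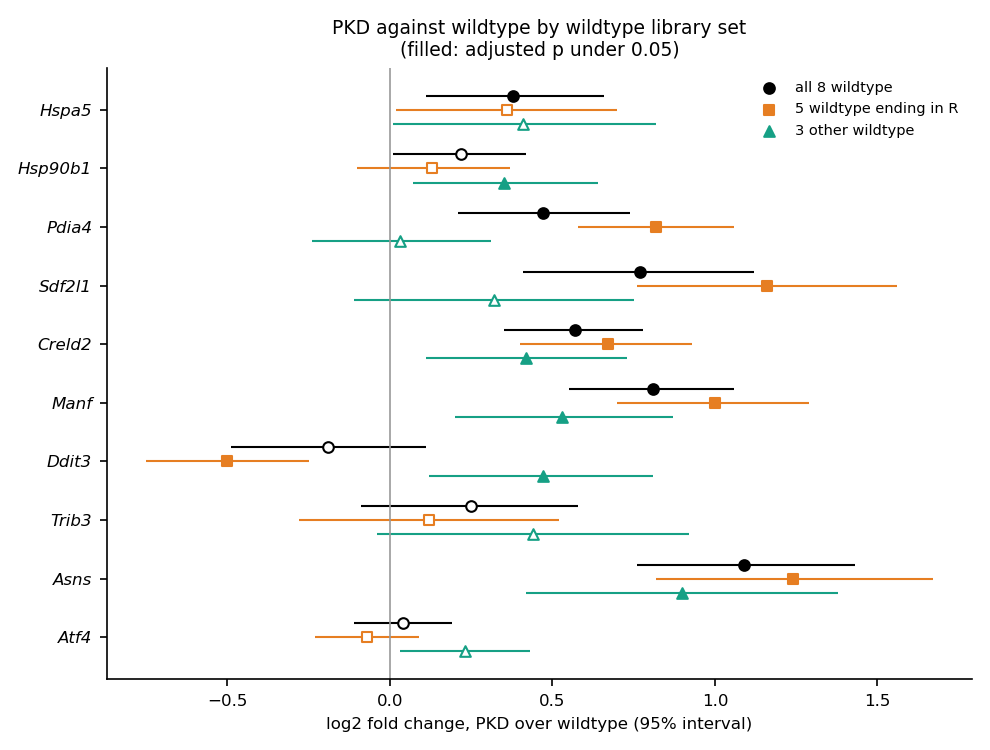
Log2 fold change of PKD over wildtype (x axis) with its 95% interval for each gene, fitted against all 8 wildtype kidneys (circles), the 5 whose library names end in R (squares) and the other 3 (triangles); filled symbols have an adjusted p under 0.05. Creld2, Manf and Asns are filled in all 3 fits, Pdia4 falls from 0.82 to 0.03 between the sets, and Ddit3 lies on opposite sides of 0.

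Counted by set, 5 of the 10 genes were higher and 1 lower against the R libraries, where 30.7% and 28.9% of all genes were. Against the other 3, 5 of the 10 were higher and 0 lower, where 20.9% and 19.9% of all genes were. The no-feature share moved with some of these genes inside the disease groups as well. Ddit3 rose with that share in the 12 PKD kidneys (Pearson r = 0.87, permutation p = 0.00065; Spearman rho = 0.78, permutation p = 0.00383) and in the 12 PKD + Salsalate kidneys (r = 0.75, permutation p = 0.00454; rho = 0.78, permutation p = 0.00392). Pdia4 fell with it in both (r = −0.70, permutation p = 0.0063, and r = −0.76, permutation p = 0.00396; rho = −0.79 and −0.80, permutation p = 0.0033 and 0.00284). Over the 20 relations of this kind these 4 had adjusted p of 0.013, 0.0303, 0.0315 and 0.0303, and no other passed. Without the 2 kidneys whose share was farthest from the median, r was 0.52 and 0.57 for Ddit3 (permutation p = 0.118 and 0.0835). For Pdia4 it was −0.80 and −0.74 (permutation p = 0.00685 and 0.0129). Dropping 2 kidneys leaves fewer values and a narrower range of the share, so whether the Ddit3 relation rested on them cannot be told. Atf4 in PKD had r = 0.75 (permutation p = 0.0174, adjusted p = 0.0696) and r = −0.26 without those 2, of which PKD replicate 4, at 16.4%, was one.

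A fit with that share as a covariate, added after the data were seen, also called 6 of the 10 genes higher in PKD, with 26.4% of all genes called higher. It put Pdia4 at 0.37 ± 0.09 on the log2 scale (edgeR adjusted p = 0.000603) and Ddit3 at 0.05 (adjusted p = 0.61). Hspa5 lost its call at 0.32 (adjusted p = 0.0505) and Hsp90b1 gained one at 0.26 (adjusted p = 0.0283). Asns, Manf, Creld2 and Sdf2l1 kept theirs, at 0.99, 0.76, 0.55 and 0.71.

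The second comparison asked what 2 weeks of salsalate changed in PKD kidney. For these genes no change passed the test: 0 of the 10 were called (edgeR), where 0.58% of all genes, 81, were. At an unadjusted p under 0.05 there were 2 of the 10, Asns and Atf4, where 1436 of all 13961 genes were. DESeq2, limma-voom and every fit without 1 kidney also called 0 of the 10. The median log2 fold change of the 10 was −0.07, against −0.01 over all genes, with 4 of the 10 above 0.

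Asns read 13.9, 5.93, 7.27, 9.10, 6.59, 7.72, 9.56, 9.28, 6.84, 10.9, 12.5 and 8.41 CPM in the 12 PKD + Salsalate kidneys. Replicates 1, 10, 11, 7, 8 and 4 lay above the highest PKD kidney, 9.04 CPM, and 11 of 12 above the PKD median. The log2 fold change over PKD was 0.45 ± 0.13, with an interval from 0.18 to 0.72, unadjusted p = 0.0019 and edgeR adjusted p = 0.109. Leaving out each kidney in turn gave adjusted p from 0.0921 to 0.228. With the no-feature share as a covariate, Asns was the 1 gene of the 10 called, at 0.41 (edgeR adjusted p = 0.0456), among 4.18% of all genes.

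Atf4 had a negative fold change. It read 94.9 to 143 CPM in PKD + Salsalate (median 111) against 110.0 to 172 in PKD (median 129.6), and in 11 of the 12 it was under the median of PKD. The log2 fold change was −0.21 ± 0.07, with an interval from −0.34 to −0.08 and edgeR adjusted p = 0.130 (0.0526 to 0.246 with each kidney left out, and 0.0514 with the covariate). Ddit3 read 13.8 to 25.0 CPM in PKD + Salsalate, at −0.24 ± 0.13 over PKD (edgeR adjusted p = 0.581), and 10 of the 12 were under the median of PKD.

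None of the ER chaperone genes passed between PKD + Salsalate and PKD. The intervals of the log2 fold change ran from −0.33 to 0.16 for Hspa5, −0.29 to 0.08 for Hsp90b1, −0.29 to 0.17 for Pdia4, −0.06 to 0.54 for Sdf2l1, −0.10 to 0.27 for Creld2 and −0.07 to 0.37 for Manf. Manf exceeded the median of PKD in 11 of 12 kidneys, with 43.9 to 88.3 CPM, and Hspa5 in 7 of 12. Trib3 read 2.13 to 4.27 CPM, with an interval from −0.42 to 0.16.

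**Figure D3:**
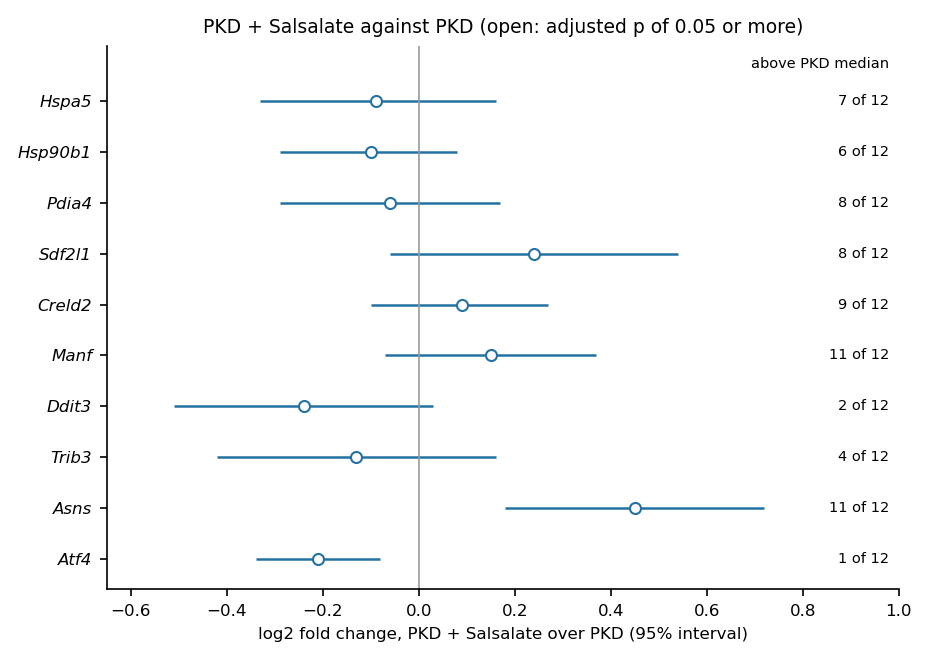
Log2 fold change of PKD + Salsalate over PKD (x axis) with its 95% interval for each of the 10 genes, with the number of the 12 treated kidneys above the PKD median at the right. All symbols are open, since no adjusted p was under 0.05; the intervals of Asns (0.18 to 0.72) and Atf4 (−0.34 to −0.08) do not hold 0.

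Against wildtype, PKD + Salsalate kidneys had 5 of the 10 genes higher and 1 lower, with 21.8% of all genes higher and 23.2% lower. This comparison shares its wildtype kidneys with the first and its treated kidneys with the second. Asns was higher by 1.54 ± 0.17 on the log2 scale (edgeR adjusted p = 4.85e-09), Sdf2l1 by 1.00 ± 0.18, Manf by 0.96 ± 0.13, Creld2 by 0.66 ± 0.11 and Pdia4 by 0.41 ± 0.13. Every treated kidney lay above every wildtype kidney for Creld2, Manf and Asns, and for 4.46% of all genes. Ddit3 was lower (−0.43 ± 0.15, edgeR adjusted p = 0.0180), a call lost without wildtype replicate 4 (adjusted p = 0.0568). Against the R libraries the same 5 genes were higher and 2 lower, Ddit3 (−0.74) and Atf4 (−0.28), beside 29.7% and 28.4% of all genes. Against the other 3 wildtype libraries 4 were higher, Asns, Manf, Creld2 and Sdf2l1, beside 18.3% of all genes, Ddit3 stood at 0.23 (adjusted p = 0.289) and Pdia4 at −0.02. With the covariate 5 were higher, beside 22.8% of all genes, and Ddit3 was no longer called (−0.09, adjusted p = 0.415).

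Among kidneys of 1 group, chaperone genes varied together with Hspa5: 5 in PKD + Salsalate, and in PKD Pdia4 by Pearson's r and 3 genes by rank. Over the 12 PKD + Salsalate kidneys, the Pearson r of log2 CPM with Hspa5 was 0.94 for Pdia4, 0.88 for Creld2, 0.87 for Manf, 0.84 for Hsp90b1 and 0.75 for Sdf2l1, with permutation p of 2e-05, 0.00016, 0.00031, 0.0005 and 0.00456. Spearman's rho was 0.87, 0.92, 0.89, 0.80 and 0.80 in the same order, with permutation p of 0.00044, 6e-05, 0.00034, 0.00254 and 0.00315. Over the 34 relations computed, 17 in each group, the adjusted p of r for these 5 were 0.00068, 0.00272, 0.00351, 0.00425 and 0.0258. In the 12 PKD kidneys the values of r were 0.83 for Pdia4, 0.65 for Creld2, 0.68 for Manf, 0.65 for Hsp90b1 and 0.43 for Sdf2l1, of which Pdia4 passed (permutation p = 0.00157, adjusted p = 0.0107). By Spearman's rho in PKD, Hsp90b1 (0.80, permutation p = 0.00284, adjusted p = 0.0179), Creld2 (0.77, permutation p = 0.00471, adjusted p = 0.0229) and Pdia4 (0.73, permutation p = 0.00973, adjusted p = 0.0414) passed, and Manf (0.55) and Sdf2l1 (0.40) did not. Whether r differed between the groups was not tested.

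Without the 2 kidneys farthest from the median of Hspa5, r in PKD + Salsalate was 0.85, 0.85, 0.80, 0.74 and 0.78 for Pdia4, Creld2, Manf, Hsp90b1 and Sdf2l1. Of these, Pdia4 and Creld2 passed the adjusted threshold (both adjusted p = 0.0349). Over the 10 kidneys left, Manf, Hsp90b1 and Sdf2l1, and Pdia4 in PKD (r = 0.79), no longer passed (adjusted p = 0.0575, 0.086, 0.0575 and 0.0578). Hspa5 itself had r below 0, not past the threshold, with the no-feature share (−0.59 in PKD + Salsalate and −0.43 in PKD, permutation tests, adjusted p = 0.142 and 0.353). With that share regressed out, r with Hspa5 in PKD + Salsalate was 0.93, 0.89, 0.90, 0.77 and 0.76 in the order above, and in PKD it was 0.82, 0.82, 0.73, 0.85 and 0.51. In PKD the first 4 of these then passed (permutation tests, adjusted p = 0.00969, 0.00687, 0.0198 and 0.0062) and Sdf2l1 did not (adjusted p = 0.271).

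For Atf4, Ddit3, Trib3 and Asns no correlation with Hspa5 passed. Their r with it ran from −0.35 (Ddit3) to 0.39 (Asns) in PKD and from −0.34 (Ddit3) to 0.25 (Asns) in PKD + Salsalate. Asns had r from −0.41 (Atf4) to 0.55 (Pdia4) with the other 8 genes in PKD and from −0.40 (Ddit3) to 0.34 (Creld2) in PKD + Salsalate, and 0 of those 16 relations passed. Its r with Atf4 was −0.41 in PKD (permutation p = 0.186) and 0.26 in PKD + Salsalate (permutation p = 0.425).

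**Figure D4:**
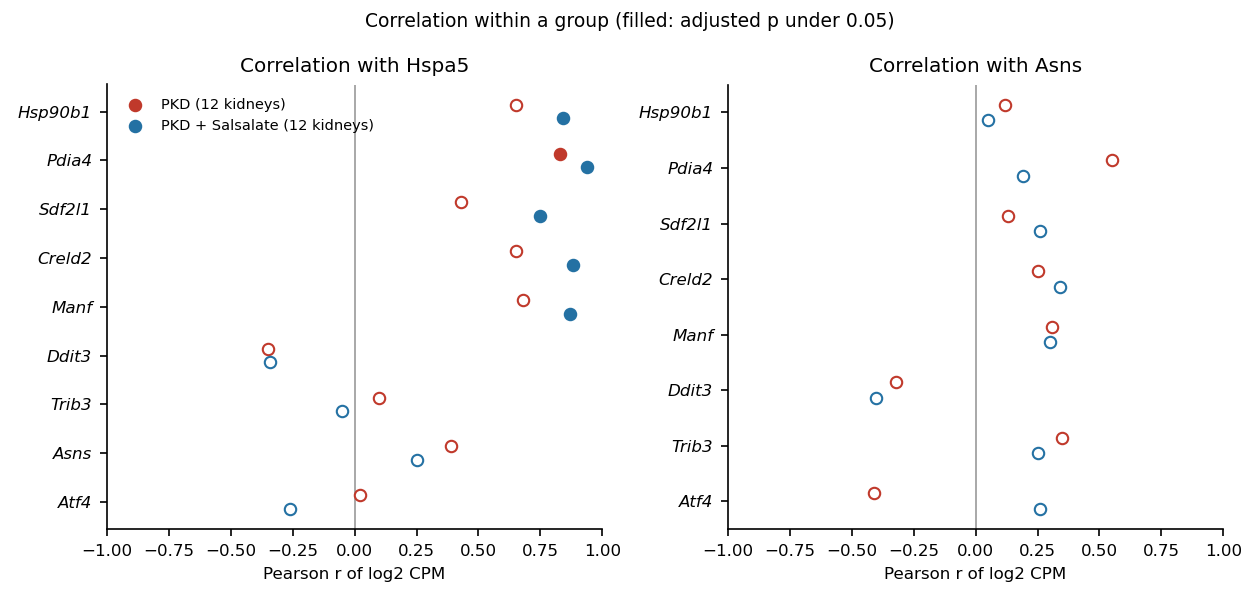
Pearson r of log2 CPM (x axis, −1 to 1) of each gene with Hspa5 (left) and with Asns (right) over the 12 PKD (red) and the 12 PKD + Salsalate (blue) kidneys; filled circles have an adjusted p under 0.05. The 5 other chaperone genes lie at 0.43 to 0.94 with Hspa5, and every circle of the Asns panel is open.

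Over all 32 kidneys, with each group's mean removed, the genes most like Hspa5 among 13960 were Uso1 (r = 0.80), Dnaja1 (0.79), Cse1l (0.77), Hspa4 (0.77) and Pdia5 (0.75). Dnaja1 and Hspa4 encode cytosolic HSP70 partners and Pdia5 an ER disulfide isomerase, while Uso1 serves transport from ER to Golgi and Cse1l nuclear export. Creld2 and Hsp90b1 ranked 23rd and 24th (both r = 0.70), Manf 51st and Pdia4 178th. The genes most like Asns were Slc34a2 (r = 0.78), Havcr1 (0.76), Tlr2 (0.76), Plpp5 (0.76) and Ckap4 (0.74). Havcr1 encodes KIM-1, a marker of tubular injury, and Slc34a2 a phosphate transporter. Hspa5 stood 4730th in that order, at r = 0.18. These values are descriptions over kidneys that share library depth and composition. Removing each group's mean left in the difference between the wildtype library sets. Those sets did not overlap for Pdia4, Sdf2l1 and Creld2 and did for Hspa5, so ranks here are not those within the disease groups.

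The wider pathways were read from 16 gene lists, whose counts stand beside 24.1% of all genes higher and 25.0% lower in PKD (30.7% and 28.9% against the R libraries, 20.9% and 19.9% against the other 3). The lists were chosen with earlier results of these data known, so their counts are descriptions. Of 34 tested genes for ER chaperones and folding, which hold 6 of the 10 genes, 20 were higher and 4 lower in PKD than in wildtype, with a median log2 fold change of 0.31 (all genes −0.01). Beside Manf the lowest p belonged to Dnajc10 (0.50 ± 0.09), an ER disulfide reductase, Fkbp14 (0.41 ± 0.07), a prolyl isomerase of collagen folding, and Ppib (−0.36 ± 0.06), another prolyl isomerase, which was lower. Against the R libraries 23 were higher and 3 lower. Against the other 3 wildtype libraries 6 and 4 of the 34 were, both shares under the 20.9% and 19.9% of all genes. ER translocation and ERAD, the degradation of misfolded ER proteins, had 11 of 31 higher and 4 lower (median 0.16), such as Ssr2 (0.48 ± 0.10), Edem2 (0.32 ± 0.08), Sec23b (−0.32 ± 0.07) and Sec61g (−0.66 ± 0.15). Against the R libraries 19 were higher and 5 lower, and against the other 3 wildtype libraries 1 was higher and 7 lower. Against those 3, Ssr2 (0.08), Edem2 (0.01) and Sec61g (−0.09) did not pass (edgeR adjusted p = 0.378, 0.887 and 0.704). Sec23b did (−0.29, edgeR adjusted p = 0.0195).

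Of 11 tested sensors and transducers, 5 were higher and 1 lower in PKD. Xbp1, the IRE1 target (0.59 ± 0.13), Eif2ak3, which encodes PERK (0.58 ± 0.11), Creb3l1 (0.51 ± 0.13), Atf6 (0.30 ± 0.11) and Creb3 (0.18 ± 0.05) rose, and Nfe2l1, a regulator of proteasome genes, fell (−0.40 ± 0.05). Ern1, which encodes IRE1 (0.23), Atf6b (0.14), Creb3l2, Mbtps1 and Mbtps2 (each 0.00 after rounding) did not pass. Against the R libraries 9 were higher and 1 lower, and against the other 3 wildtype libraries 0 were higher and 4 lower, Xbp1 standing at 0.26 (adjusted p = 0.203). Atf6b, Creb3l2 and Mbtps1 were called in both of these fits with opposite signs. They stood at 0.60, 0.19 and 0.22 against the R libraries and at −0.40, −0.28 and −0.31 against the other 3.

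The list of eIF2 kinases, phosphatases and exchange factor had 4 of 17 genes higher and 5 lower, with a median of −0.06, near the 24.1% and 25.0% of all genes. Eif2ak3 again, the eIF2 subunit Eif2s1 (0.32 ± 0.07), Impact (0.29 ± 0.07), an inhibitor of GCN2 activation, and Ppp1r15a (0.23 ± 0.06), the stress-induced phosphatase subunit GADD34, were higher. Dele1 (−0.47 ± 0.07), which relays mitochondrial stress to the kinase HRI, Eif2b2 (−0.48 ± 0.08), Eif2b5 (−0.28 ± 0.05) and Eif2b4 (−0.25 ± 0.07) of the exchange factor, and Eif2ak4, which encodes GCN2 (−0.23 ± 0.08), were lower. Ppp1r15b (0.22), Eif2s3x (−0.29), Eif2b3 (−0.12), Gcn1 (0.12), Eif2s2 (−0.11), Eif2ak2 (−0.06), Eif2b1 (−0.02) and Eif2ak1 (−0.01) did not pass. Against the R libraries 7 were higher and 8 lower, and against the other 3 wildtype libraries 2 and 4. Against those 3, Eif2ak3 (0.21), Impact (0.16), Ppp1r15a (0.11), Eif2ak4 (0.06) and Eif2b4 (−0.03) did not pass (edgeR adjusted p = 0.142, 0.117, 0.212, 0.627 and 0.814). Eif2ak2, which encodes the kinase PKR, was lower in PKD against the R libraries (−0.32, edgeR adjusted p = 0.00336) and higher against the other 3 (0.48, adjusted p = 0.00155). Eif2ak1 went the opposite way, higher against the R libraries (0.22, edgeR adjusted p = 0.0357) and lower against the other 3 (−0.34, adjusted p = 0.0186).

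ATF4 is known to induce genes of amino acid supply. Of 18 tested genes of ATF4 amino acid metabolism, 13 were higher, Asns among them, and 1, Cbs, lower, with a median of 0.41, beside 24.1% and 25.0% of all genes. Slc38a2, a glutamine transporter (0.77 ± 0.06), Phgdh, which opens serine synthesis (1.39 ± 0.17), Mthfd2 of mitochondrial folate metabolism (0.94 ± 0.13) and Aldh18a1 of proline synthesis (0.99 ± 0.14) had the lowest p, and all 4 passed against either wildtype set. In all, 14 were higher and 1 lower against the R libraries, and 7 and 2 against the other 3. The list named ATF4 and CHOP regulators also holds targets of these factors, such as Trib3. Of its 17 tested genes, 7 were higher and 2 lower. Among the 14 that are not among the 10 genes, Stc2 (2.07 ± 0.17), Atf3 (2.06 ± 0.22), Gdf15 (1.45 ± 0.16) and Vldlr (0.51 ± 0.07) had the lowest p. Against the R libraries 8 were higher and 4 lower, and against the other 3 wildtype libraries 9 and 2.

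Cytosolic heat shock proteins had 8 of 21 higher and 0 lower, led by Hspb1 (1.33 ± 0.12), with Hspa8 (0.30 ± 0.08), Hspa1b (0.84 ± 0.23) and Cryab (0.43 ± 0.12), and 8 and 5 were higher and 0 lower against the R and the other wildtype libraries. Reads of Hspa1b may be shared with its near-identical copy Hspa1a. Aminoacyl-tRNA synthetases of the cytosol had 3 of 20 higher, Iars1 (0.37), Vars1 (0.32) and Tars1 (0.22), and 1 lower, Cars1 (−0.27). Both synthetase shares lay under those of all genes, 24.1% and 25.0%, and against the R libraries 7 were higher and 5 lower, against the other 3 1 and 1. Mitochondrial chaperones and proteases had 2 of 15 higher and 4 lower, such as Htra2 (0.24), Trap1 (−0.45), Grpel1 (−0.34) and Clpp (−0.22). By set, 5 were higher and 3 lower against the R libraries, and 1 and 6 against the other 3.

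Between PKD + Salsalate and PKD, 0 genes were called in each of these 9 lists (edgeR). At an unadjusted p under 0.05 there were 0 to 5 genes of a list, beside 1436 of all 13961 genes. The 5 belong to ATF4 amino acid metabolism, whose 18 tested genes had a median log2 fold change of 0.02. All 5 had higher values in PKD + Salsalate: Asns (0.45), Psat1 (0.31), Phgdh (0.31) and Psph (0.19), the last 3 being the enzymes of serine synthesis, and Slc6a9 (0.26), a glycine transporter. Psat1, Phgdh and Slc6a9 were named here after their values were seen. Atf3 had the lowest p on the list named ATF4 and CHOP regulators (−0.68 ± 0.17, edgeR adjusted p = 0.0571). It was called at the same −0.68 in the fits with the R libraries (adjusted p = 0.0261) or the other 3 (adjusted p = 0.0159) as the wildtype group. Median log2 fold changes of the 9 lists lay between −0.07 and 0.03.

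**Figure D5:**
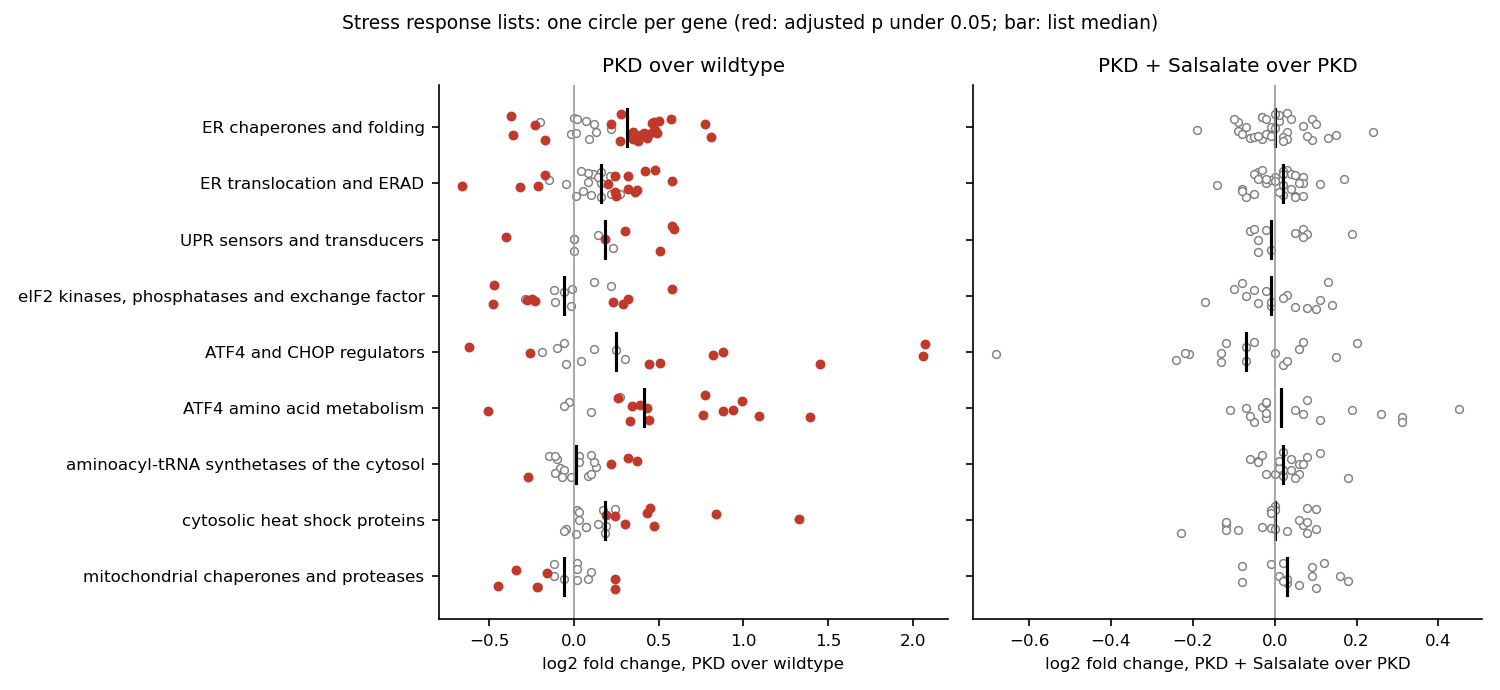
Log2 fold change of every tested gene (1 circle each) in 9 stress response lists for PKD over wildtype (left) and PKD + Salsalate over PKD (right, on a narrower scale); red circles have an adjusted p under 0.05 and black bars are list medians. On the left the bars of ATF4 amino acid metabolism (0.41) and of ER chaperones (0.31) lie farthest to the right, and on the right no circle is red.

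Markers of kidney cell types moved between PKD and wildtype beside the 10 genes. All 8 tubular injury markers were higher in PKD, with summed levels of 1454 to 2954 CPM against 362 to 627, Lcn2 (4.68 ± 0.27) and Havcr1 (5.90 ± 0.42) among them. All 10 macrophage markers (352 to 561 against 153 to 240.1 CPM) and all 10 fibroblast markers (913 to 1539 against 382 to 598 CPM) were higher, as Lyz2 (1.97 ± 0.18) and Col1a1 (2.32 ± 0.17) show. Plasma cells, which express ER chaperones strongly, had 2 of 6 tested markers higher, Sdc1 and Irf4, while Ighm, Igkc and Jchain did not pass, and summed to 55.0 to 139.9 CPM in PKD against 34.97 to 179 in wildtype. Proximal tubule markers (2 of 12 higher, 3 lower; 11071 to 22207 CPM in wildtype and 12779 to 16739 in PKD) and distal markers (0 of 10 higher, 4 lower; 4578 to 6893 and 4499 to 5692 CPM) were detected in every kidney. The sum of proximal markers was 11071 to 14415 CPM in the R libraries and 18969.7 to 22207 in the other 3 wildtype libraries. In PKD 9 proximal markers were higher and 1 lower against the R libraries, and 0 and 7 against the other 3. Distal markers had 4 and 4, and 0 and 7. Injury and macrophage counts did not change with the set, and fibroblast markers had 8 and 9 higher, plasma cell markers 2 and 3, and liver transcripts 6 and 2, with 0 lower. Liver transcripts had 6 of 10 tested higher in PKD and 2, Alb and Apoc3, lower in PKD + Salsalate than in PKD. Without PKD replicate 10 Alb went from −5.96 to −0.01 and lost its call (edgeR adjusted p = 0.998). Apoc3 went from −1.17 to −0.59 and kept its call (edgeR adjusted p = 0.0225). The part of cell makeup in the values of the 10 genes was not tested.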

How the data were processed

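Per the labels and the study's methods, the authors trimmed reads with cutadapt 2.10, aligned them with STAR 2.7.5a to GRCm39 and counted them by strand per gene with HTSeq 0.12.4. They deposited raw counts for 32 kidneys, 1 library per mouse. No 2 libraries of a group agreed within sampling noise. Here the 5 summary lines of the counter were left out of library sizes. Genes above 1 on the log2 CPM scale in at least 8 kidneys were tested with edgeR 4.0.16 (R 4.3.3) by its quasi-likelihood test, with TMM scaling and the 3 groups in 1 fit. Benjamini-Hochberg adjustment ran over all 13961 genes, with a threshold of 0.05, and the step was tested on simulated data. SE is the log2 fold change over the root of F, and intervals are 95%. Correlations used log2 CPM with a prior count of 2 and 2-sided permutation tests of 100000 resamples.

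Of 53700 gene rows, 52610 matched GENCODE M39, which gave symbols, lengths and promoters on the same build. Counting used strand, so antisense neighbours of Hspa5, Hsp90b1, Ddit3 and Asns were kept apart. Strand cannot separate same-strand overlaps with Hsp90b1 (Gm15344, 63 bases, and Gm54730, 133), Pdia4 (Mir704, 14) and Manf (Rbm15b, 14). A second gene also named Ddit3 shares 105 bases, 10.7% of the Ddit3 transcript, on the same strand. The symbol Ddit3 named more than 1 row, and the row with the most reads was used. The 10 genes and the lists were chosen with earlier results of these data known. Genes named were the 10, Pkd1, all sensor and eIF2 genes, up to 4 called genes with the lowest p per list (2 by unadjusted p where none was called), and the 5 most like Hspa5 and Asns. DESeq2 1.42.0, limma 3.58.1, other filters and scalings, a replicate block, and fits without 1 kidney or without either set of wildtype libraries were alternatives. The covariate fit and the correlations with the no-feature share were added after seeing the data.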

Additional observations from a re-analysis of the deposited data

How the results depend on the processing

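Of 960 log2 fold changes recomputed with 1 of the 32 kidneys left out, 944 kept their direction and their side of the threshold. Genes called between PKD and wildtype then ranged from 6116 to 7246, between PKD + Salsalate and PKD from 39 to 226, and between PKD + Salsalate and wildtype from 5573 to 6867. The genes called among the 10 ranged from 6 to 7, stayed at 0 and ranged from 5 to 8. Atf4 in PKD over wildtype ran from 0.00 to 0.06 and, without PKD replicate 4, was just under 0.

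Across the other settings, the count of all genes called between PKD + Salsalate and PKD moved from 81 to 199 (DESeq2 Wald test), 146 (limma-voom), 195 (only the groups compared), 48 (replicate block), 145 and 257 (wildtype libraries ending and not ending in R) and 583 (covariate), where 1 of the 10 was called. Directions reversed against the wildtype libraries not ending in R for Ddit3 in PKD (0.47) and in PKD + Salsalate (0.23), Pdia4 (−0.02) and Atf4 (0.02) in PKD + Salsalate, against those ending in R for Atf4 in PKD (−0.07) and Trib3 in PKD + Salsalate (−0.01), and with the covariate for Ddit3 in PKD (0.05). The number of correlations that passed fell from 6 to 2 without the 2 kidneys farthest from the median, where fewer kidneys entered. Other causes were not tested.

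Replicate numbers did not pair kidneys: 2 of 12 PKD and PKD + Salsalate pairs had deviations correlated over 0.1, and 1 of 12 PKD kidneys correlated best with its own number. With the replicate block, Hspa5 in PKD over wildtype lost its call (0.36, edgeR adjusted p = 0.0569). Atf4 in PKD + Salsalate over wildtype gained one (−0.20, edgeR adjusted p = 0.0288), so that 7 of the 10 were called there against 6. Asns and Trib3 rested on as few as 21 reads in a library.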
